A study of Mus musculus with 8 samples.

Results

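The acute phase proteins described here are 10 secreted plasma proteins made mainly by the liver, taken by gene symbol from the deposited table of liver RNA and not by any measured value. They are the serum amyloid A genes *Saa1*, *Saa2* and *Saa3*, the orosomucoid genes *Orm1* and *Orm2*, haptoglobin (*Hp*), hemopexin (*Hpx*), C-reactive protein (*Crp*), lipocalin 2 (*Lcn2*) and the lipopolysaccharide binding protein (*Lbp*). All 10 were found among the 55385 gene identifiers of the table. The study deleted *Usp39*, which encodes a component of the spliceosome, in hepatocytes and asked what the loss does to the liver. RNA was taken from the livers of 4 *Usp39*-HKO and 4 control littermates, all male, 5 weeks old and fasted for 16 h, with 1 library per mouse. The *Usp39*-HKO mice carried a *Usp39* allele with *loxP* sites around exon 2 and the *Albumin*-Cre transgene, used to delete *Usp39* in hepatocytes. Whether every other cell type of the liver kept *Usp39* was not tested. The labels give the control mice as WT. No inflammatory agent was given to either group, and both groups share the fast. The livers are named by their mouse numbers, A469, A470, A471 and A474 for *Usp39*-HKO and A468, A472, A473 and A475 for control.

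The acute phase response is the change in plasma proteins that follows infection or tissue injury. Macrophages release IL-1, TNF and IL-6, and hepatocytes answer through NF-κB, STAT3 and C/EBP factors with more serum amyloid A, orosomucoid and haptoglobin and with less albumin and transthyretin. In mice serum amyloid A is the strongest responder, whereas *Crp*, a major acute phase protein in humans, responds only modestly.

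The counts on genes summed to between 8589636 and 10418450 per liver. The test covered 14340 genes that reached 0.5 FPKM in 4 or more livers, of which 22.5% differed between the genotypes at an adjusted p under 0.05 (edgeR's quasi-likelihood test on the deposited counts, Benjamini-Hochberg), 10.9% being higher and 11.6% lower in *Usp39*-HKO livers. *Usp39* itself lay between 8.07 and 8.70 FPKM in *Usp39*-HKO and between 8.76 and 10.4 FPKM in control livers (log2 fold change −0.41, adjusted p = 0.0212), a call lost under 5 of 16 alternatives. The count covers all exons of *Usp39*, of which 1 is deleted, and every cell type of the liver, so it checks the labels only in part. Hepatocyte markers were abundant in all 8 livers, with summed levels of 14380 to 19410 FPKM, as the tissue label states. A control liver, A475, held transcripts of the exocrine pancreas, with a summed level of 498.5 FPKM for 6 acinar genes against at most 2.21 FPKM in the other 7 livers. A *Usp39*-HKO liver, A469, stood apart from the other 3 in the acute phase genes themselves, and the counts and log2 fold changes of the 10 genes are therefore also given without it. Since the choice of A469 rests on these same genes, the values without it are a description and no independent evidence.

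*Hp* and *Hpx* dominated the RNA of the 10 genes. They took between 78.8% and 85.7% of the counts on the 10 genes in every liver, and the 10 genes together took between 0.433% and 1.02% of all counts. In control livers the mean FPKM, which scales counts to exon length and to the total count of the liver, was 1865 ± 202 for *Hpx*, 1626 ± 152 for *Hp*, 607.5 ± 50.5 for *Orm1*, 109.6 ± 6.58 for *Crp*, 67.9 ± 8.61 for *Lbp*, 49.8 ± 20.4 for *Orm2*, 20.6 ± 15.5 for *Lcn2*, 16.9 ± 8.34 for *Saa1*, 3.05 ± 0.884 for *Saa2* and 1.30 ± 0.351 for *Saa3* (SD, n = 4). The order was not resolved between *Hpx* and *Hp*, between *Lbp* and *Orm2*, between *Orm2* and *Lcn2*, or between *Lcn2* and *Saa1*, whose values overlapped between livers. The other neighbours in this order did not overlap. The exon length behind FPKM includes annotated transcripts that retain introns, which makes it 2478 bases for *Saa1*, whose coding transcript has 609. Per kilobase of the longest coding transcript, *Saa1* had a mean level of 68.8 ± 33.9 and *Lcn2* of 59.1 ± 44.3 in controls (SD, n = 4), beside 49.8 ± 20.4 for *Orm2*. *Hp* had 1942 ± 181 and *Hpx* 1865 ± 202. In both comparisons the values overlapped between livers, so these orders were not resolved. This choice of length was made after seeing the data and does not touch comparisons of the same gene between livers.

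**Figure D1:**
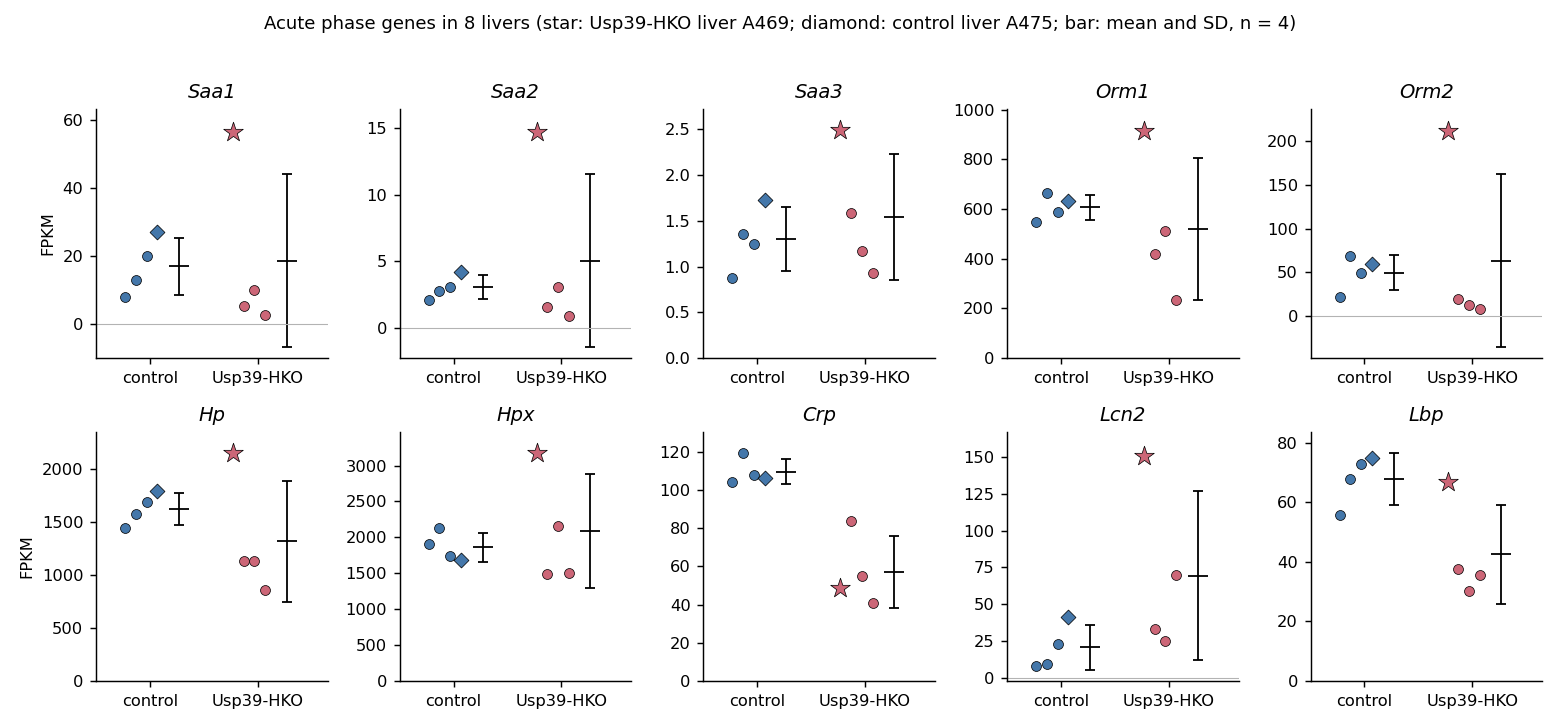
FPKM of each of the 10 acute phase genes in the 4 control (blue) and 4 *Usp39*-HKO (red) livers, with the mean and SD beside the points (n = 4); the star is liver A469 and the diamond control liver A475. A469 is the highest of all 8 livers for 8 of the 10 genes, and for *Crp* all 4 *Usp39*-HKO livers lie below all controls.

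Between the genotypes, 2 of the 10 genes were lower in *Usp39*-HKO livers, *Crp* and *Lbp*, and 0 were higher (edgeR, adjusted p under 0.05), beside 11.6% of all tested genes that were lower and 10.9% that were higher. The share of the 10 genes that passed was thus close to that of all genes. All 10 genes passed the filter on low values, 3 had an unadjusted p under 0.05 (*Crp*, *Lbp* and *Lcn2*), and the median log2 fold change of the 10 was −0.04, beside a median of −0.0015 over all tested genes. With the cutoff of the study's methods (unadjusted p below 0.05 and a log2 fold change beyond 0.5 in size), 2 genes were lower and 1, *Lcn2*, was higher, beside 9.62% and 12.1% of all genes. DESeq2 and limma on log2(FPKM + 1) also called 0 higher and 2 lower, whereas edgeR called *Lcn2* higher without TMM scaling or without the filter on low values. Over all 14340 tested genes DESeq2 called 1700 higher and 1784 lower, and limma called 3012 higher and 620 lower. The fold changes use TMM scaling of the totals between livers, which FPKM does not have. Without TMM the median log2 fold change of all tested genes was 0.24. A mean FPKM can therefore be higher in *Usp39*-HKO livers beside a negative log2 fold change, as for *Hpx* and *Alb*. In liver RNA, fewer hepatocytes and less RNA per hepatocyte cannot be told apart.

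Without A469, 6 of the 10 genes were lower and 0 were higher at an edgeR adjusted p under 0.05 (7 and 0 at an unadjusted p under 0.05), beside 11.5% lower and 12.3% higher (23.8% in all) of the 13959 genes then tested, and the median log2 fold change was −0.92. The 6 were *Saa1*, *Orm1*, *Orm2*, *Hp*, *Crp* and *Lbp*. Leaving out each of the other 7 livers in turn gave 1 or 2 genes lower. The count lower was 1 without A470, A471, A474, A473 or A475, since *Lbp* was then lost, and 2 without A468 or A472. Among these 8 fits *Lcn2* passed as higher only in that without control A475.

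**Figure D2:**
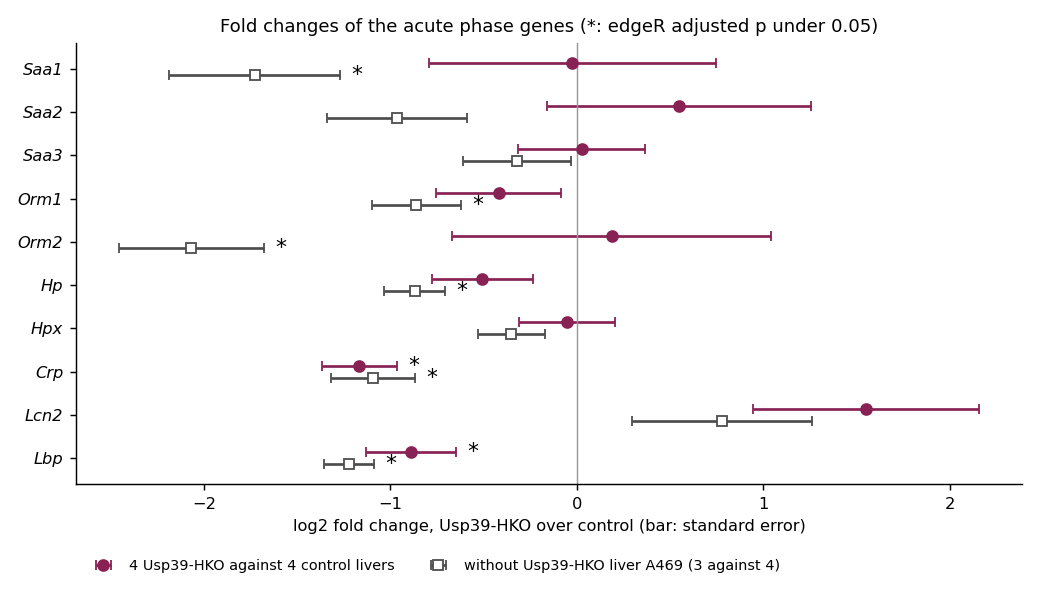
Log2 fold change of each acute phase gene, *Usp39*-HKO over control, with its standard error from edgeR; filled points use all 8 livers and open squares leave out A469, and an asterisk marks an adjusted p under 0.05. With all livers only *Crp* and *Lbp* carry an asterisk, and without A469 the estimates of *Saa1* and *Orm2* move from near 0 to −1.73 and −2.07.

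*Crp* encodes a pentraxin that binds phosphocholine on microbes and dying cells and activates complement. The gene (ENSMUSG00000037942) spans 172698055 to 172833031 on the plus strand of chromosome 1 of GRCm38. Its FPKM was 48.7, 84.0, 55.2 and 40.9 in the *Usp39*-HKO livers A469, A470, A471 and A474, and 104.5, 119.2, 108.0 and 106.6 in the controls A468, A472, A473 and A475. Every *Usp39*-HKO liver was below every control, and the 4 controls lay within a 1.14-fold range. The mean in *Usp39*-HKO livers was 52.2% of the control mean, and the log2 fold change was −1.17 (standard error 0.20, edgeR adjusted p = 0.00291). The exact permutation test of the FPKM gave a two-sided p of 0.029, the smallest that 4 livers against 4 allow. *Crp* was the only 1 of the 10 genes without overlap between the groups, beside 28.7% of all tested genes. It was also the gene that did not follow A469, where its level was 0.445 of the control mean, and it passed the edgeR test whichever liver was left out (adjusted p between 0.000906 and 0.0111, log2 fold change between −1.40 and −0.998).

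*Lbp* encodes the plasma protein that hands bacterial lipopolysaccharide to CD14. It lies on the plus strand of chromosome 2 from 158306493 to 158332852 (ENSMUSG00000016024). Its FPKM was 66.9, 37.5, 30.1 and 35.5 in the *Usp39*-HKO livers A469, A470, A471 and A474, and 55.8, 68.0, 73.0 and 74.9 in the controls A468, A472, A473 and A475. The other 3 *Usp39*-HKO livers were below all controls, whereas A469 lay within the control range. The log2 fold change was −0.89 (standard error 0.24, edgeR adjusted p = 0.0223), and without A469 it was −1.22 (adjusted p = 0.000282). The exact permutation test of the FPKM gave p = 0.057, two-sided. The call was lost, with an adjusted p between 0.0559 and 0.0672, when any 1 of A470, A471, A474, A473 and A475 was left out.

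*Hp* and *Hpx* encode the scavengers of free hemoglobin and free heme in plasma. *Hp* (ENSMUSG00000031722) lies on the minus strand of chromosome 8 from 109575128 to 109579172, and *Hpx* (ENSMUSG00000030895) on the minus strand of chromosome 7 from 105591613 to 105600137. The FPKM of *Hp* was 2154, 1132, 1133 and 864 in the *Usp39*-HKO livers A469, A470, A471 and A474, and 1443, 1576, 1690 and 1797 in the controls A468, A472, A473 and A475. A469 was above every control and the other 3 *Usp39*-HKO livers were below every control. The log2 fold change of *Hp* was −0.51 (standard error 0.27, edgeR adjusted p = 0.209), and without A469 it was −0.87 (standard error 0.16, adjusted p = 0.00349). *Hpx* had 3181, 1496, 2155 and 1499 FPKM in the *Usp39*-HKO livers in the same order, and 1906, 2132, 1740 and 1681 FPKM in the controls. Its groups overlapped with and without A469, and it did not pass in either fit (log2 fold change −0.05, standard error 0.26 and adjusted p = 0.912 with A469, and −0.35, 0.18 and 0.189 without it).

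*Orm1* and *Orm2* encode α1-acid glycoproteins, lipocalin-fold carriers of basic drugs and lipids. They lie on the plus strand of chromosome 4, *Orm1* (ENSMUSG00000039196) from 63344560 to 63348163 and *Orm2* (ENSMUSG00000061540) from 63362449 to 63365878, with the related *Orm3* between them. *Orm1* had 913, 420, 513 and 236 FPKM in the *Usp39*-HKO livers A469, A470, A471 and A474, and 548, 664, 588 and 631 FPKM in the controls A468, A472, A473 and A475. *Orm2* had 211.5, 20.1, 13.3 and 8.17 FPKM in the *Usp39*-HKO livers, and 21.6, 68.9, 49.4 and 59.4 FPKM in the controls, in the same orders. For both genes A469 was above every control and the other 3 *Usp39*-HKO livers were below every control, and the level in A469 was 1.5 times the control mean for *Orm1* and 4.24 times for *Orm2*. *Orm2* therefore spanned a 25.9-fold range among the *Usp39*-HKO livers, but a 3.18-fold range among the controls. With all livers the log2 fold change was −0.42 for *Orm1* (standard error 0.34, edgeR adjusted p = 0.406) and 0.19 for *Orm2* (standard error 0.85, adjusted p = 0.905). Without A469 both were lower, by −0.86 (adjusted p = 0.0239) and −2.07 (adjusted p = 0.00343). The transcript of *Orm1* matched that of *Orm3* over 781 bases at 86.4% identity. The longest identical run between *Orm1* and *Orm2* was 141 bases, close to the read length. A read inside that run could fit both genes, whereas a longer read would cover a difference between their transcripts. Added up, the counts of *Orm1* and *Orm2* gave a log2 fold change of −0.36 (adjusted p = 0.532).

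*Saa1* and *Saa2* encode the serum amyloid A apolipoproteins that hepatocytes load onto high-density lipoprotein, and *Saa3* encodes a form made largely outside hepatocytes, for example by macrophages. The 3 genes lie in a cluster on chromosome 7, *Saa3* (ENSMUSG00000040026) from 46711998 to 46715700 and *Saa1* (ENSMUSG00000074115) from 46740497 to 46742980 on the minus strand, and *Saa2* (ENSMUSG00000057465) from 46751790 to 46754313 on the plus strand. *Saa1* had 56.5, 5.15, 9.94 and 2.68 FPKM in the *Usp39*-HKO livers A469, A470, A471 and A474, and 7.82, 12.9, 19.8 and 27 FPKM in the controls A468, A472, A473 and A475. *Saa2* had 14.7, 1.56, 3.04 and 0.880 FPKM in the *Usp39*-HKO livers, and 2.12, 2.76, 3.10 and 4.23 FPKM in the controls. In both genes A469 was the highest of the 8 livers and A474 the lowest, and the second highest was control A475. The remaining *Usp39*-HKO values overlapped the controls. The log2 fold change was −0.03 for *Saa1* (standard error 0.77, edgeR adjusted p = 0.985) and 0.55 for *Saa2* (standard error 0.71, adjusted p = 0.622), and without A469 it was −1.73 (adjusted p = 0.0195) and −0.96 (adjusted p = 0.0878).

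*Saa3* was low and narrow in comparison, with 2.49, 1.58, 1.17 and 0.931 FPKM in the *Usp39*-HKO livers and 0.878, 1.35, 1.25 and 1.73 FPKM in the controls. Its highest value was again in A469, at 1.91 times the control mean, and its log2 fold change did not pass with A469 (0.02, adjusted p = 0.969) or without it (−0.32, adjusted p = 0.471). The coding transcripts of *Saa1* and *Saa2* matched over 612 bases at 93.5% identity, with a longest identical run of 99 bases. A read inside that run could fit either gene, whereas a longer read would cover a difference between these transcripts. How many reads were shared was not tested. The summed counts of *Saa1* and *Saa2* did not differ past the threshold either (log2 fold change 0.08, standard error 0.75, edgeR adjusted p = 0.953).

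The stretches before the start sites of *Saa1*, *Saa2* and *Orm2*, the genes with the widest range among *Usp39*-HKO livers, are shown beside that of *Crp*, which did not follow A469, and that of *Lcn2*, which had the largest positive fold change of the 10. They run from 220 to 51 bases before the start of the RefSeq transcript (GRCm38.p6), 5′ to 3′ on the strand of the gene. Capitals mark matches, on either strand, to TTNNGNAA, a pattern of C/EBP sites, and to a loose pattern of NF-κB sites, GGG and CC with 5 bases of any kind between them.
Saa1, chr7:46743031-46743200, minus strand: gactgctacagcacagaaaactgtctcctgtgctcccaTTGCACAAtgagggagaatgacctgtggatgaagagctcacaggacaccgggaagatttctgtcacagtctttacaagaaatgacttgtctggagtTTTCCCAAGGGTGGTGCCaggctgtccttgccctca
Saa2, chr7:46751613-46751782, plus strand: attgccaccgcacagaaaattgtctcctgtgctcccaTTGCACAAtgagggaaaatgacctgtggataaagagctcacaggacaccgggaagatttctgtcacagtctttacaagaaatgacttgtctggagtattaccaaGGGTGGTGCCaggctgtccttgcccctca
Orm2, chr4:63362229-63362398, plus strand: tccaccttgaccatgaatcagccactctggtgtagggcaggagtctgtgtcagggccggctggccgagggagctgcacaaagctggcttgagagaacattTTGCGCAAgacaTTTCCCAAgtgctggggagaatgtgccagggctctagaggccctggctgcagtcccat
Crp, chr1:172697836-172698005, plus strand: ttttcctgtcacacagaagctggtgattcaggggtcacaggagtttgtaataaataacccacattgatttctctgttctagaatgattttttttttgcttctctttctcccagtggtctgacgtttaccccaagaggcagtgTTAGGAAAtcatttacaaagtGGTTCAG
Lcn2, chr2:32387790-32387959, minus strand: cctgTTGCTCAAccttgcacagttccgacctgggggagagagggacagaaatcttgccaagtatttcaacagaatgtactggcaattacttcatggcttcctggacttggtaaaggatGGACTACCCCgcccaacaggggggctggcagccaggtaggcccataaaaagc

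The windows of *Saa1* and *Saa2* were identical at 161 of 170 bases, and *Saa1* held a match to TTNNGNAA beside its NF-κB pattern that *Saa2* lacked. The last capitals of *Crp* begin a match that runs past the window. RefSeq promoters of 300 bases, from 250 before to 50 after the start, were found for 7 of the 10 genes (*Orm1*, *Hp* and *Lbp* were not matched). TTNNGNAA was in 7 of the 7, beside 40.7% of all 32851 promoters, and the loose NF-κB pattern in 4 of the 7 (*Crp*, *Lcn2*, *Saa1* and *Saa2*), beside 50.8%. A stricter NF-κB pattern (GGG and TTTCC with 2 bases of any kind between them), the STAT palindrome TTCNNNGAA and the core of the IL-6 response element, CTGGGAA, were in 0 of the 7, beside 1.63%, 8.3% and 11.1% of all promoters. These matches describe the letters of the windows and are not binding sites shown by the data.

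*Lcn2* encodes lipocalin 2, which withholds iron from bacteria by binding their siderophores and is made by neutrophils as well as by hepatocytes. It lies on the minus strand of chromosome 2 from 32384633 to 32388252 (ENSMUSG00000026822). Its FPKM was 150.6, 33.0, 24.7 and 69.9 in the *Usp39*-HKO livers A469, A470, A471 and A474, and 8.18, 9.65, 23.2 and 41.5 in the controls A468, A472, A473 and A475. All *Usp39*-HKO livers were above the lowest 3 controls, and A475, the control with pancreas transcripts, lay among the *Usp39*-HKO values. The mean was 337.1% of the control mean, but the gene did not pass in edgeR (log2 fold change 1.55, standard error 0.61, adjusted p = 0.0893, unadjusted p = 0.0261), nor did the exact permutation test of the FPKM (p = 0.114, two-sided). It passed without TMM scaling (1.75, adjusted p = 0.0416), without the filter on low values (1.53, adjusted p = 0.0078) and without A475 (2.13, adjusted p = 0.049), whereas without A469 the log2 fold change was 0.78 (adjusted p = 0.276). *Lcn2* was the only 1 of the 10 genes with a positive log2 fold change both with and without A469.

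Between single livers most of the genes varied in a shared order. A469 was the highest of the 8 livers for 8 of the 10 genes, the exceptions being *Crp* and *Lbp*, beside 11% of all tested genes. It was above the other 3 *Usp39*-HKO livers for 9 of the 10, beside 17.4% of all genes. A474 was the lowest of the 8 for 6 of the 10 (*Saa1*, *Saa2*, *Orm1*, *Orm2*, *Hp* and *Crp*), beside 6.2% of all genes. The other 3 *Usp39*-HKO livers were all below the 4 controls for 5 of the 10 (*Orm1*, *Orm2*, *Hp*, *Crp* and *Lbp*), beside 6.65% of all genes. These orders were shared by other genes of the hepatocyte, since of the 10 hepatocyte markers A469 was above the other *Usp39*-HKO livers for 7, A474 was the lowest of the 8 for 6, and the other 3 *Usp39*-HKO livers were all below the controls for 5. A469 was also above the other *Usp39*-HKO livers for 15 of 21 other positive and 8 of 12 negative acute phase genes. The FPKM behind these orders has no TMM scaling, and over all 14340 tested genes it leaned to higher values in *Usp39*-HKO livers. The other 3 *Usp39*-HKO livers were all above the 4 controls for 4678 genes and all below them for 954. A474 was the highest of the 8 for 5598 genes and the lowest for 889. The shares of 6.2% and 6.65% belong to this scale and were not computed with TMM scaling. Over the counts of all genes, A469 differed more from the other *Usp39*-HKO livers (chi-square per degree of freedom 25.1 to 36.4) than these differed from each other (16.5 to 23.4). In sum the 10 genes took 1.02% of all counts in A469, 0.433% to 0.589% in the other *Usp39*-HKO livers and 0.629% to 0.710% in the controls. Among the controls A475 was the highest and A468 the lowest for *Saa1*, *Saa2*, *Saa3*, *Hp*, *Lcn2* and *Lbp*.

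The 22 other positive acute phase genes gave a like picture. Of the 21 tested, 6 were lower and 1 was higher in *Usp39*-HKO livers, beside 11.6% and 10.9% of all genes, and their median log2 fold change was −0.43. *C4b*, a complement component, was lower by −1.01 (edgeR adjusted p = 0.00784), with 131.9 to 239.2 FPKM in *Usp39*-HKO and 253.2 to 361.4 FPKM in control livers. *Saa4*, the constitutive serum amyloid A, was lower by −0.78 (adjusted p = 0.0104). The fibrinogen γ chain *Fgg* was lower by −0.83 (adjusted p = 0.0206). The calls of *Fgg* and *Saa4* were lost under 5 and 2 of 16 alternatives. *Fga*, *Itih3* and *Itih4* completed the 6. The gene that was higher was *Steap4*, a metalloreductase, at 0.73 (adjusted p = 0.0024), with 31.9 to 49.5 FPKM in *Usp39*-HKO and 19.0 to 22.8 FPKM in control livers. The fibrinogen β chain *Fgb* (−0.56, adjusted p = 0.0883), the complement component *C3* (−0.43, adjusted p = 0.109), the protease inhibitor *Serpina3n* (−0.25, adjusted p = 0.594) and serum amyloid P, *Apcs* (−0.13, adjusted p = 0.62), did not pass.

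Without A469, 14 of the 21 were lower and 1 was higher, beside 11.5% and 12.3% of all genes then tested. Their median was −0.81, and *Fgb*, *C3* and *Serpina3n* then passed as lower (edgeR adjusted p of 0.00307, 0.0219 and 0.0302). Leaving out any other liver gave between 3 and 6 calls of the 21. *Orm3* repeated the pattern of *Orm2*, with 45.1 FPKM in A469 and between 0.955 and 9.06 FPKM in the other 7 livers. A469 was above the other 3 *Usp39*-HKO livers in 15 of the 21 genes, beside 17.4% of all tested genes.

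**Figure D3:**
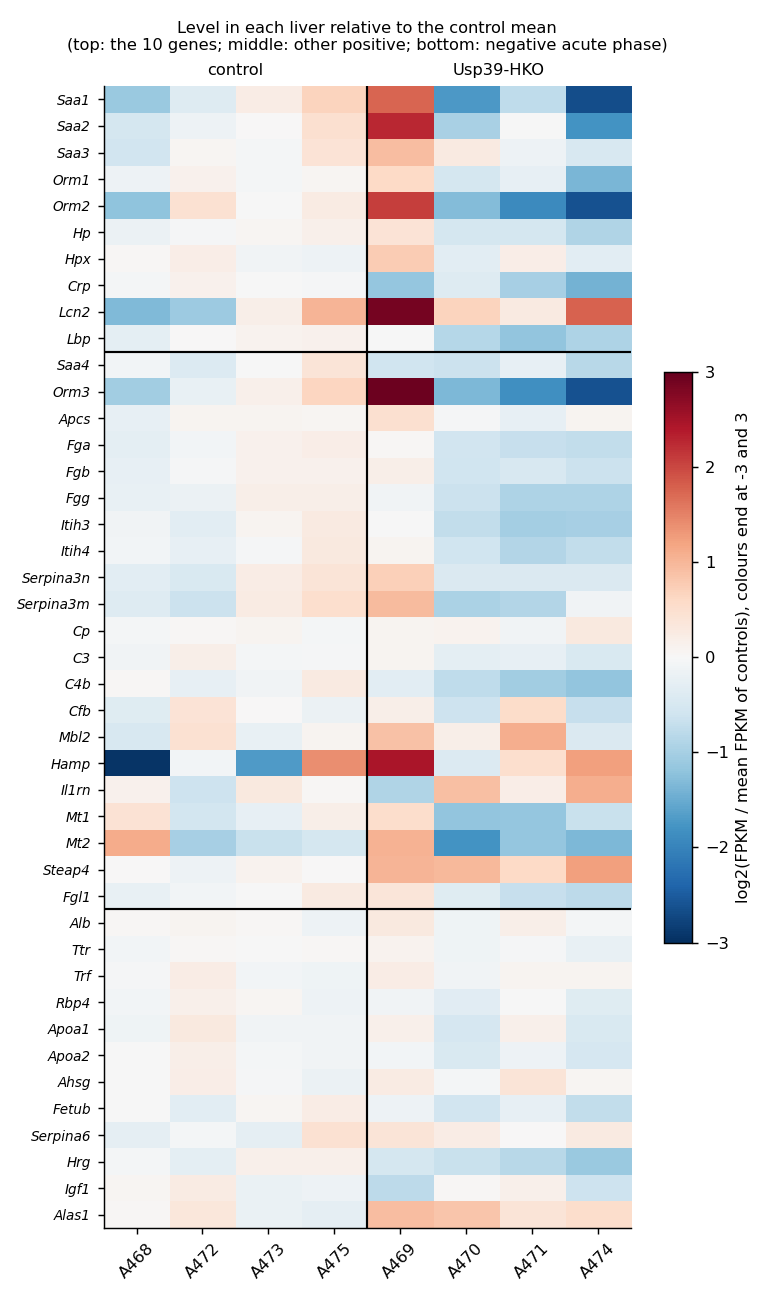
Level of each gene in each liver as the log2 ratio to the mean FPKM of the 4 controls, for the 10 acute phase genes (top), the 21 other positive acute phase genes tested (middle) and 12 negative acute phase genes (bottom). The column of A469 is red over most of the upper blocks, the other 3 *Usp39*-HKO columns are mostly blue there, and the row of *Crp* is blue in all 4.

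The negative acute phase genes, whose products fall in plasma during inflammation, were lower where they passed in edgeR, but not under every tool. Of the 12, 3 were lower and 0 were higher in edgeR, beside 11.6% and 10.9% of all genes. Their median log2 fold change was −0.32. The counts without A469 were also 3 and 0, beside 11.5% and 12.3% of all genes then tested. At an unadjusted p under 0.05, 5 were lower and 1 was higher. DESeq2 called 4 lower and 1 higher, beside 1784 and 1700 of all 14340 tested genes. Limma on log2(FPKM + 1) called 1 lower and 1 higher, beside 620 and 3012 of all. The 3 were *Hrg*, histidine-rich glycoprotein (−0.99, edgeR adjusted p = 0.00348), *Fetub*, a protease inhibitor (−0.63, adjusted p = 0.0299), and the apolipoprotein *Apoa2* (−0.51, adjusted p = 0.0397). The calls of *Apoa2* and *Fetub* were lost under 11 and 8 of 16 alternatives. *Alb*, albumin, had 9767, 7281, 8982 and 7661 FPKM in the *Usp39*-HKO livers A469, A470, A471 and A474 and 7170 to 8355 FPKM in the controls, and its log2 fold change was −0.14 (adjusted p = 0.626). Albumin was highest in A469, as *Saa1* and *Orm2* were.

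Of 26 genes of the IL-6 family and STAT3 pathway 21 were tested. In edgeR 6 were lower and 2 were higher, beside 11.6% and 10.9% of all genes, with a median log2 fold change of −0.21. In limma on log2(FPKM + 1), which has no TMM scaling, 2 were lower and 4 were higher, beside 620 and 3012 of all 14340 tested genes. *Il6ra*, the receptor chain that binds IL-6, had 6.53 to 9.88 FPKM in *Usp39*-HKO and 10.5 to 17.5 FPKM in control livers, without overlap (log2 fold change −1.04, standard error 0.20, edgeR adjusted p = 0.00499). *Cebpa*, a C/EBP factor of resting hepatocytes, was lower by −0.67 (adjusted p = 0.00747), again without overlap. *Il11ra1*, the IL-11 receptor, was lower by −0.48 (adjusted p = 0.0115). The other 3 lower genes, *Lifr*, *Tyk2* and *Nr3c1*, were named after their values were seen. The calls of *Il6ra*, *Cebpa* and *Il11ra1* held whichever liver was left out, and that of *Il11ra1* was lost under 3 of the other alternatives.

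*Lif*, an IL-6 family cytokine, had 27, 23, 50 and 33 counts in the *Usp39*-HKO livers A469, A470, A471 and A474, and 1, 0, 0 and 0 in the controls A468, A472, A473 and A475. The ratio of the summed rates was 130, with an exact 95% interval for counting error of 23 to 5180. *Lif* reached the filter on low values only through the *Usp39*-HKO livers, where it is high, and was not tested without A469, so its call is no support for the list. Without A469, 7 of the 20 genes then tested were lower and 1 was higher, beside 11.5% and 12.3% of all genes then tested. *Junb*, an immediate early target of the pathway, was the other gene that was higher (0.68, edgeR adjusted p = 0.0251). *Il6* itself was at or under 0.261 FPKM in all 8 livers and was not tested. The signal transducer *Il6st* (0.11, adjusted p = 0.504), *Stat3* (−0.47, adjusted p = 0.123), its feedback inhibitor *Socs3* (0.37, adjusted p = 0.127), *Cebpb* (−0.22, adjusted p = 0.641) and *Cebpd* (−0.10, adjusted p = 0.779) did not pass, and *Stat3* passed as lower without A469 (−0.63, adjusted p = 0.0319). *Socs3* had 6.51, 4.21, 6.20 and 6.71 FPKM in the *Usp39*-HKO livers A469, A470, A471 and A474 and 3.66 to 4.31 FPKM in the controls, so A469 did not stand apart in it.

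Of 28 genes of the IL-1, TNF and NF-κB pathway, 26 were tested. In edgeR 2 were lower and 0 were higher, beside 11.6% and 10.9% of all genes, with a median log2 fold change of 0.10. At an unadjusted p under 0.05, 5 were higher, and DESeq2 called 1 higher and 2 lower. The direction of the calls depended on scaling, in this list as over all genes. Limma on log2(FPKM + 1) called 7 higher and 1 lower, beside 3012 higher and 620 lower of all 14340 tested genes. Without TMM, edgeR made 10 calls in the list, beside 4221 among all genes. *Il1rap*, the shared co-receptor of the IL-1 family, had 6.31 to 8.07 FPKM in *Usp39*-HKO and 10.8 to 15.02 FPKM in control livers, without overlap (log2 fold change −1.10, standard error 0.14, edgeR adjusted p = 0.00087). *Chuk*, the kinase IKKα, was lower by −0.57 (adjusted p = 0.00872), a call lost under 3 of 16 alternatives. *Il1b*, at 5.84 to 11.7 FPKM, and the NF-κB inhibitor *Nfkbia*, at 29.1 to 42.2 FPKM, did not pass (adjusted p of 0.773 and 0.277), and *Tnf* was at or under 0.419 FPKM in all livers and was not tested.

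**Figure D4:**
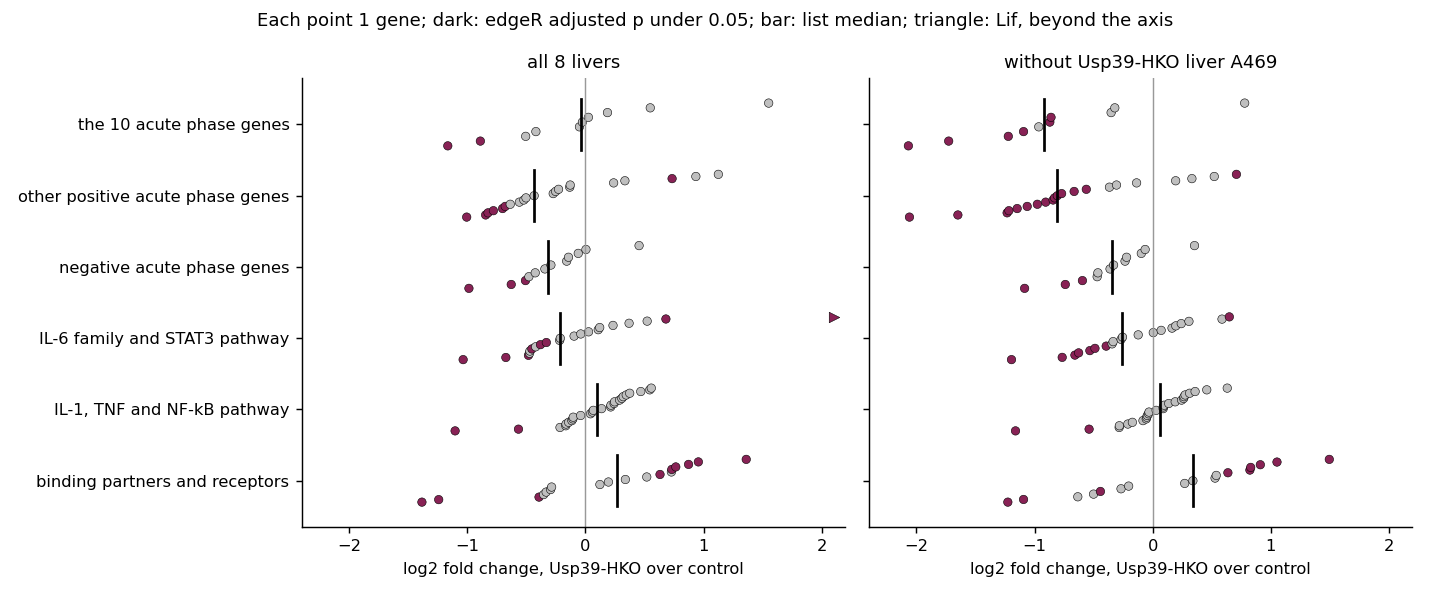
Log2 fold change, *Usp39*-HKO over control, of every tested gene of 6 lists with all 8 livers (left) and without A469 (right); each point is 1 gene, dark points have an edgeR adjusted p under 0.05, the bar is the list median, and the triangle is *Lif*, which lies beyond the axis. The medians of the 10 acute phase genes and of the other positive acute phase genes move to −0.92 and −0.81 without A469, whereas that of the IL-1, TNF and NF-κB list changes from 0.10 to 0.06.

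Of 20 genes for the binding partners and receptors of the 10 proteins, 18 were tested. Of these, 6 were higher and 3 were lower, beside 10.9% and 11.6% of all genes. Without A469 the counts were the same among 17 tested, beside 12.3% and 11.5% of all genes then tested. On the side of lipopolysaccharide, which *Lbp* serves, *Tlr4* was higher at 0.63 (edgeR adjusted p = 0.0327, lost under 4 of 15 alternatives), with 1.60 to 2.30 FPKM in *Usp39*-HKO and 0.817 to 1.35 FPKM in control livers. *Cd14* had 29.4, 13.4, 19.3 and 25.5 FPKM in the *Usp39*-HKO livers and 7.98 to 17.2 FPKM in the controls, and did not pass in edgeR (0.73, adjusted p = 0.0773), although it passed as higher under 6 of 16 alternatives, DESeq2 and limma on log2(FPKM + 1) among them (adjusted p of 0.0357 and 0.0393). *Cd36*, a scavenger receptor that binds serum amyloid A among other ligands, was higher at 1.36 (adjusted p = 0.00236). The Fcγ receptor *Fcgr3*, a receptor class that C-reactive protein binds, and the shared signalling chain *Fcer1g* were higher at 0.87 (adjusted p = 0.003) and 0.73 (adjusted p = 0.00422).

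For heme and hemoglobin, which hemopexin and haptoglobin carry, the partners moved in both directions. The heme oxygenase *Hmox1* had 47.8, 49.5, 49.4 and 98.7 FPKM in the *Usp39*-HKO livers A469, A470, A471 and A474 and 24.4 to 29.2 FPKM in the controls (log2 fold change 0.96, edgeR adjusted p = 0.0046). The haptoglobin-hemoglobin receptor *Cd163* did not pass (−0.30, adjusted p = 0.43). The globin transcripts *Hba-a1* and *Hbb-bs* and the hemopexin receptor *Lrp1*, named after their values were seen, were the 3 lower genes (−1.39, −1.24 and −0.39, adjusted p of 0.00589, 0.0119 and 0.0473).

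Markers of macrophages, stellate cells and cholangiocytes were for the most part higher in *Usp39*-HKO livers. Beside the counts of every marker list stand 10.9% higher and 11.6% lower of all tested genes, and 12.3% and 11.5% without A469. Of all 14340 genes, limma on log2(FPKM + 1) called 3012 higher and 620 lower, and DESeq2 called 1700 higher and 1784 lower. Of 12 Kupffer cell and macrophage markers 9 were higher, and their summed level was 782.2 to 1107 FPKM in *Usp39*-HKO and 402.2 to 565.4 FPKM in control livers. *Cd5l*, *Marco*, *Vsig4* and *Ccr2* were higher by between 0.73 and 1.25 (edgeR adjusted p between 0.00355 and 0.0117), and *Adgre1* did not pass (0.36, adjusted p = 0.105). *Ccr2* had 0.90 to 1.36 FPKM in *Usp39*-HKO and 0.35 to 0.58 FPKM in control livers. It reached the filter on low values through the *Usp39*-HKO livers, where it is high, so its call is no support for the list. Of 10 stellate cell and fibroblast markers 8 were higher, led by *Lum* (2.42, adjusted p = 0.00228), and of 4 tested cholangiocyte markers 3 were higher. The sums of these 3 lists were highest in A474, and for the stellate cell and cholangiocyte lists A469 was the lowest of the *Usp39*-HKO livers, at 118.7 and 13.9 FPKM. Of 10 hepatocyte markers 5 were lower, with a median log2 fold change of −0.50, and 7 were lower without A469, whereas limma on log2(FPKM + 1) called 2 lower. The part of these cells in the values of the acute phase genes was not tested.

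*Lcn2* and *Saa3* can also come from neutrophils and macrophages. The neutrophil markers *S100a8* and *S100a9* were highest in A469, at 32.2 and 41.6 FPKM against 4.68 to 18.8 and 6.02 to 26.9 FPKM in the other 7 livers. Of 12 neutrophil markers 9 were tested and 0 passed in edgeR (1 higher and 1 lower at an unadjusted p under 0.05), whereas DESeq2 and limma on log2(FPKM + 1) each called 1 higher, and their summed level was 106.2 FPKM in A469, 18.7 to 64.6 FPKM in the other *Usp39*-HKO livers and 29.5 to 76.5 FPKM in the controls. The defining marker *Ly6g* was at or under 0.437 FPKM in every liver. Of the 9 tested markers 5 were highest in A469, beside 11% of all tested genes. A469 was above the other 3 *Usp39*-HKO livers for 7, beside 17.4%. The list was not uniform, since 3 tested markers, *Camp*, *Ngp* and *Ltf*, were highest in control A472. They had 6.79, 13.3 and 2.52 FPKM there against 2.72, 7.66 and 0.954 FPKM in A469, and were named after their values were seen. The part of neutrophils in the level of *Lcn2* was not tested. Of 6 endothelial markers *Lyve1* and *Stab2* were lower (−0.997 and −0.37, adjusted p of 0.016 and 0.0481), the call of *Stab2* being lost under 12 of 16 alternatives, and limma on log2(FPKM + 1) called 2 of the 6 higher and 1 lower. Of 6 tested markers of T, B and NK cells and 3 of mesothelium 0 passed in edgeR or DESeq2, and 0 had an unadjusted p under 0.05 in edgeR, whereas limma on log2(FPKM + 1) called 1 of the 6 higher. Adipocyte markers summed to at most 0.312 FPKM.

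**Figure D5:**
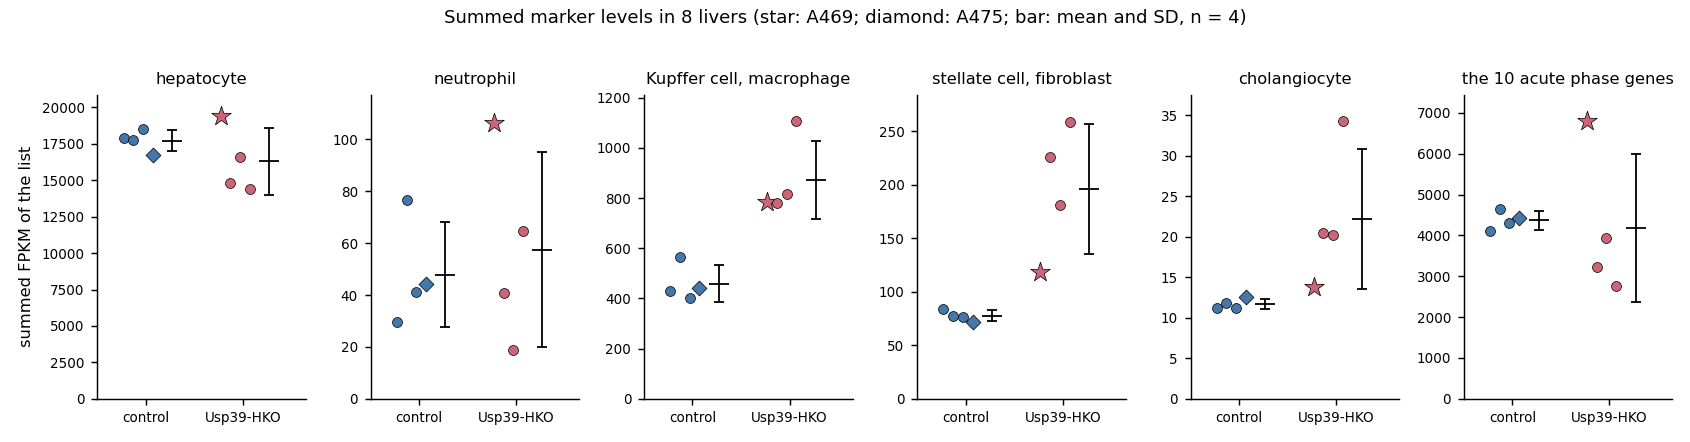
Summed FPKM of 5 lists of cell type markers and of the 10 acute phase genes in each liver, with the mean and SD of 4 livers; the star is A469 and the diamond A475. The macrophage, stellate cell and cholangiocyte sums of all *Usp39*-HKO livers lie above the controls, whereas the acute phase sum lies above the controls in A469 (6799 FPKM) and below them in the other 3 (2758 to 3938 FPKM).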

How the data were processed

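Liver RNA of 4 *Usp39*-HKO and 4 control mice was sequenced with 1 library per mouse. According to the methods and the submitters' processing notes, the authors trimmed reads with Trim Galore 0.6.1, checked them with FastQC 0.11.9, aligned them to mm10 with HISAT2 and obtained gene counts with featureCounts. The annotation release, the strand setting and the treatment of reads that fit several genes are not given in the sources used here. The deposited counts are whole numbers per gene without normalization. The authors also deposited FPKM, which the counts, exon lengths and totals give back within a relative difference of 2e-07. The deposited table also holds columns of the authors' DESeq2 comparison (a mean signal, a log2 fold change with its error score and statistic, p-values and a label), which were not used.

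The 314 repeated entries were read once. Genes that reached 0.5 FPKM in 4 or more livers were tested on the counts with edgeR 4.0.16 (R 4.3.3), TMM scaling, no covariates and Benjamini-Hochberg adjustment over the 14340 genes. Standard errors are the size of the log2 fold change over the square root of F. Exact permutation tests run over 70 assignments. Counts covered 8589636 to 10418450 per liver, and intervals on counts cover counting error only. Replicates are separate mice, and no batch is given in the labels. Alternatives were DESeq2 1.42.0, limma 3.58.1 on log2(FPKM + 1) and log2(FPKM + 0.1), other scalings and filters, summed near copies and each liver left out. The edgeR step was tested on simulated data for this comparison with 14338 genes, where it called 139 of 200 changed genes among 149 calls. The simulation gave every gene the same dispersion and had no outlying liver. It therefore does not check the fits of genes in which A469 stood apart. Coordinates are from GENCODE vM21 on GRCm38, promoters from RefSeq, and sequence matches from BLAST+ 2.17.0+.

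The 10 genes and the lists were chosen with earlier results of these data known. Named are all 10 genes, *Usp39*, up to 4 called genes of each list by adjusted p, and a written set of pathway and marker genes. For *Saa1* and *Lcn2* the 5 genes with the highest Pearson r over the log2 scaled counts of the 8 livers are named as a description.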

Additional observations from a re-analysis of the deposited data

Results flagged for a closer look

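Among 132 groups of 4 livers checked for a value far from the other 3 (the gap to the nearest value divided by the range of the group, above the 95% critical value of Dixon's test), 14 were found. Chance gives about 1 in 20. Liver A469 gave 5 of the 14, all far above the other 3 *Usp39*-HKO livers. Its FPKM was 56.5 for *Saa1* (next 9.94), 14.7 for *Saa2* (next 3.04), 211.5 for *Orm2* (next 20.1), 908.7 for *Fgb* (next 574.5) and 801.2 for *Serpina3n* (next 362.6). Liver A474 stood above the other *Usp39*-HKO livers in the Fc receptor *Fcgr3* at 31.7 FPKM, the heme oxygenase *Hmox1* at 98.7 FPKM and *Il6* at 0.261 FPKM, the last at a level of few reads.

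Among the controls, A468 was low in *Apcs* at 127.6 FPKM (next 157.9) and was the control with a read of *Lif*, at 0.025 FPKM. A472 was high in *Marco* at 49.1 FPKM and *Epcam* at 1.29 FPKM, A473 was high in *Lyve1* at 28.8 FPKM, and A475 was high in *Tnf* at 0.117 FPKM.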

How the results depend on the processing

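Of the 16 alternatives to the edgeR fit, the size and sign of several acute phase genes followed single livers and the scaling. With 1 liver left out, the log2 fold change ran from −1.73 to 0.35 for *Saa1*, −0.96 to 0.92 for *Saa2*, −0.32 to 0.24 for *Saa3*, −0.86 to −0.15 for *Orm1*, −2.07 to 0.57 for *Orm2*, −0.87 to −0.31 for *Hp*, −0.35 to 0.12 for *Hpx*, 0.78 to 2.13 for *Lcn2* and −1.22 to −0.75 for *Lbp*, with the fit without A469 giving the lowest value of each. *Crp* kept its sign and its call under all 16. The genes called lower among the 10 ran from 1 to 6 and higher from 0 to 1, other positive acute phase genes from 3 to 15, negative ones from 1 to 3, the IL-6 list from 4 to 8, the IL-1 list from 2 to 3, the binding partners from 7 to 9 and all genes from 1917 to 3321. Ranges that crossed 0 for other genes were −0.26 to 0.057 for *Cebpd*, −0.28 to 0.016 for *Il1b*, −0.33 to 0.88 for *S100a8* and −0.65 to 0.26 for *S100a9*.

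Without TMM, where the median of all genes is 0.24, values turned to 0.13 for *Saa1*, 0.16 for *Hpx*, 0.084 for *Alb*, 0.098 for *Apcs*, 0.13 for *Cebpd*, 0.13 for *Il1b*, 0.015 for *Nfkbia* and 0.17 for *S100a9*. *Lcn2* then passed at 1.75 and 1 gene of the 10 was higher, the IL-1 list had 10 calls, and all genes split into 3525 higher and 696 lower in place of 1561 and 1664. In limma on log2(FPKM + 1) and on log2(FPKM + 0.1), where the medians of all genes are 0.17 and 0.23 and the splits 3012 to 620 and 2929 to 541, values turned to −0.76 and −0.81 for *Orm2*, 0.093 and 0.093 for *Hpx*, 0.075 and 0.075 for *Alb*, 0.076 and 0.076 for *Apcs*, 0.10 and 0.11 for *Cebpd*, 0.11 and 0.12 for *Il1b*, and 0.025 and 0.026 for *Nfkbia*. Other positive acute phase genes then had 3 and 2 calls and the IL-1 list 8 and 8. With the smaller pseudocount *Saa2* turned to −0.055 and *Lbp* lost its call at −0.74, which left 1 gene lower. With a mean FPKM of at least 5, *Saa1* was 0.035, *Hpx* 0.019 and *S100a9* 0.030, all genes had 1595 calls, the IL-6 list 5 and the IL-1 list 4. Without a filter *Lcn2* passed at 1.53, so that 1 gene was higher, as by the study's cutoff. Summed near copies gave 0.083 for *Saa1* with *Saa2*, −0.36 for *Orm1* with *Orm2* and −0.34 with *Orm3*. DESeq2 made 5 calls among the negative acute phase genes. Apart from the effects of fewer genes or livers, the cause was not tested.

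No paired analysis was possible because the mouse numbers in the titles are all different. The precision differed between the genes, with standard errors of 0.77 for *Saa1* and 0.85 for *Orm2* against 0.20 for *Crp*. FPKM of *Saa1*, *Saa2*, *Orm1* and *Orm2* may share reads between near copies. Per kilobase of the longest coding transcript, the control mean moved beyond its SD for 6 of the 10 genes, as from 16.9 to 68.8 for *Saa1*, in an alternative chosen after seeing the data.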

Other observations

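Other genes with an acute phase role shared the high value of A469. *Il1r1*, the IL-1 receptor, had 35.5 FPKM in A469 and between 9.77 and 16.5 FPKM in the other 7 livers. *Hamp*, hepcidin, had 1010, 139, 260.5 and 436.4 FPKM in the *Usp39*-HKO livers A469, A470, A471 and A474 and 23.9, 173.5, 57.4 and 485.8 FPKM in the controls A468, A472, A473 and A475. The highest control of *Hamp* was A475, the control that was also highest for *Saa1* and *Lcn2*. These genes were named after their values were seen.

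Over the log2 scaled counts of the 8 livers, the 5 genes outside the 10 that were most like *Saa1* were *Ei24* (Pearson r 0.978), *Zfp862-ps* (0.972), *Rapgef1* (0.964), *Sds* (0.963) and *Ecm1* (0.96). All 5 were highest in A469, which comes with choosing them by likeness to *Saa1* and is no separate evidence. *Sds*, serine dehydratase, had 123.8 FPKM in A469, 35.3 to 56.4 FPKM in the other *Usp39*-HKO livers and 65.9 to 86.7 FPKM in the controls. The 5 most like *Lcn2* were *Idua* (0.968), *Plaat3* (0.961), *Bmp6* (0.958), *Bmp2* (0.951) and *Traf6* (0.943). These values rest on 8 livers and the highest of 14340 genes, and the livers share their genotype groups and depth differences.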
